A study of Mus musculus with 40 samples.

Results

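The 34 genes described here encode nuclear receptors of the mouse. A further 14 genes of the family, namely the PPARs, Rxra, Hnf4a, the FXR genes, the REV-ERB and ROR receptors and the DAX/SHP pair, serve as a comparison. Each was given the peaks of the SMRT, NCoR and HDAC3 lists whose nearest protein-coding transcription start site (TSS) was its own. Of 35138 NCoR peaks 212 fell to these genes, as did 70 of 10654 SMRT peaks and 96 of 14462 HDAC3 peaks. At least 1 peak of some cofactor was found for 30 of the 34 genes, and Hnf4g, Nr1h2, Nr2e1 and Vdr had none.

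The lists came from chromatin immunoprecipitation and sequencing (ChIP-seq) of whole liver from ad libitum fed male C57BL/6 mice. These controls carried Bcl6 fl/fl alleles without the Albumin-cre transgene, so that Bcl6 was intact, and the sources used here give no age. The study's methods give 3 animals per condition, and each list holds peaks first called on the 3 libraries merged and then kept where the counts of the individual libraries passed the authors' fold and false discovery limits. The 31 samples of other targets, genotypes, feeding states or input chromatin were not analysed here.

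Nuclear receptors are transcription factors that bind DNA at a short half-site, alone or as pairs, and many of them change activity when a lipid-soluble ligand such as a steroid, thyroid hormone, retinoid or bile acid enters their binding pocket. NCoR and SMRT are related corepressors that dock on many receptors in the absence of an activating ligand, and they carry the histone deacetylase HDAC3. In liver, receptors of this family sense hormones, drugs, sterols and bile acids and control the enzymes that handle them. The lists concern these proteins as loci: they show where the corepressor complex sat around the receptor genes, and hold no expression values.

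An NCoR peak with the centres of both a SMRT and an HDAC3 peak within 200 bp is called a shared site below. Because the lists carry no value per animal, no error between animals can be given here; the intervals are exact (Clopper-Pearson) 95% binomial intervals for counting only, and neighbouring peaks of a gene are not independent of each other. The sources used here give no library depth, so a missing peak means no call at an unknown depth. Whole liver also holds several cell types. NCoR peaks were nearest to 7 of 7 hepatocyte marker genes, 3 of 3 endothelial, 2 of 3 stellate, 1 of 3 Kupffer cell and 0 of 2 lymphocyte markers. By their territory deciles 3.93, 1.83, 1.70, 1.38 and 0.660 of these genes would have one, so the last 3 counts lie close to those of genes of like territory. Which cells carried a given site was not tested.

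The receptor loci were rich in corepressor sites, and the sites were concentrated at a few genes. NCoR peaks were nearest to 30 members (88.2%), against 49.1% of all protein-coding genes. SMRT peaks were nearest to 23 members, with 23.6% of all genes, and HDAC3 peaks also to 23, with 29.2% of all genes. The 58 shared sites fell to 21 members (61.8%), with 20.9% of all genes having one. The median member had 2.5 NCoR peaks and 1 shared site, and the median over all protein-coding genes was 0 for both.

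Receptor genes lie in long stretches of DNA, and a gene with a long stretch collects more peaks. Territory is used here for the number of known bases over which a gene holds the nearest protein-coding TSS. It had a median of 153 kb for the members and 46.7 kb for all protein-coding genes. Genes were therefore split into 10 equal groups (deciles) of territory, and the members' counts were set beside the means of their deciles. These means summed to 86.2 NCoR peaks and 22.1 shared sites over the 34 genes, so the members held 2.46 and 2.63 times as many. By the shares of their deciles, 9.66 of the 34 genes would have a shared site, and 21 did. The comparison covers all protein-coding genes, including those silent in liver. Among genes with at least 1 NCoR peak the ratios were 1.72 for NCoR peaks and 1.85 for shared sites, a comparison added after seeing the data.

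The decile of longest territories runs over a wide range, so densities are given too. In that decile, 13 members had 15.2 NCoR peaks and 3.79 shared sites per Mb of territory, against 6.37 and 1.68 per Mb over all its 2194 genes. The 21 members with shorter territories had 32.2 NCoR peaks and 11.1 shared sites per Mb, against 21.5 and 5.24 per Mb for all genes of those 9 deciles. Over all members together the densities were 17.4 and 4.77 per Mb, nearer to the 13.3 and 3.30 per Mb of all genes, since most of the members' territory lies in the longest and sparsest decile. By gene, 22 members lay above their decile mean in NCoR peaks and 18 in shared sites.

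**Figure D1:**
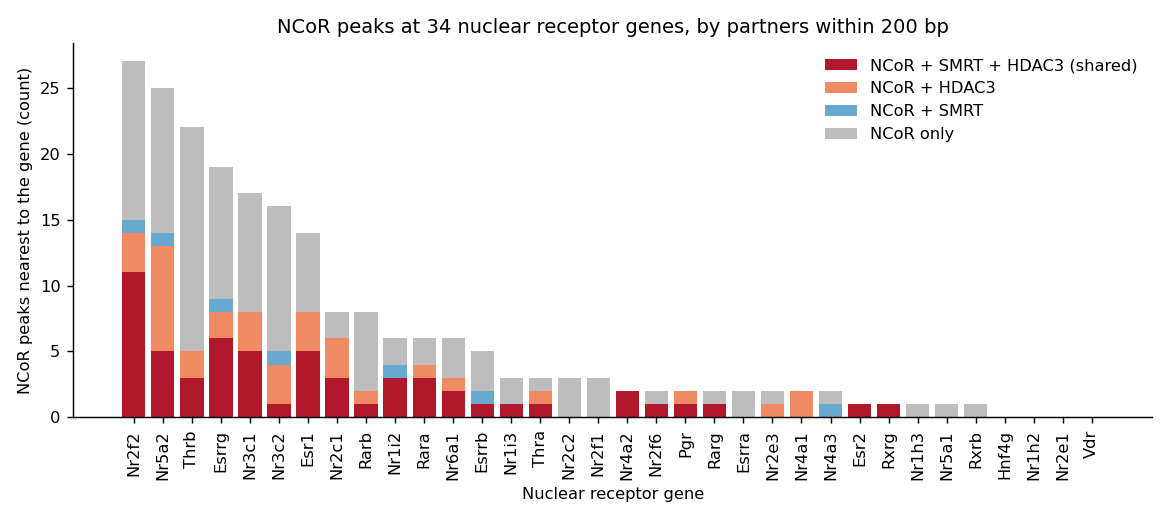
Stacked bars give the number of NCoR peaks (vertical axis, count) nearest to each of the 34 receptor genes, split by the cofactors within 200 bp. Nr2f2 has the most with 27, of which 11 are shared sites, and 4 genes have none.

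**Figure D2:**
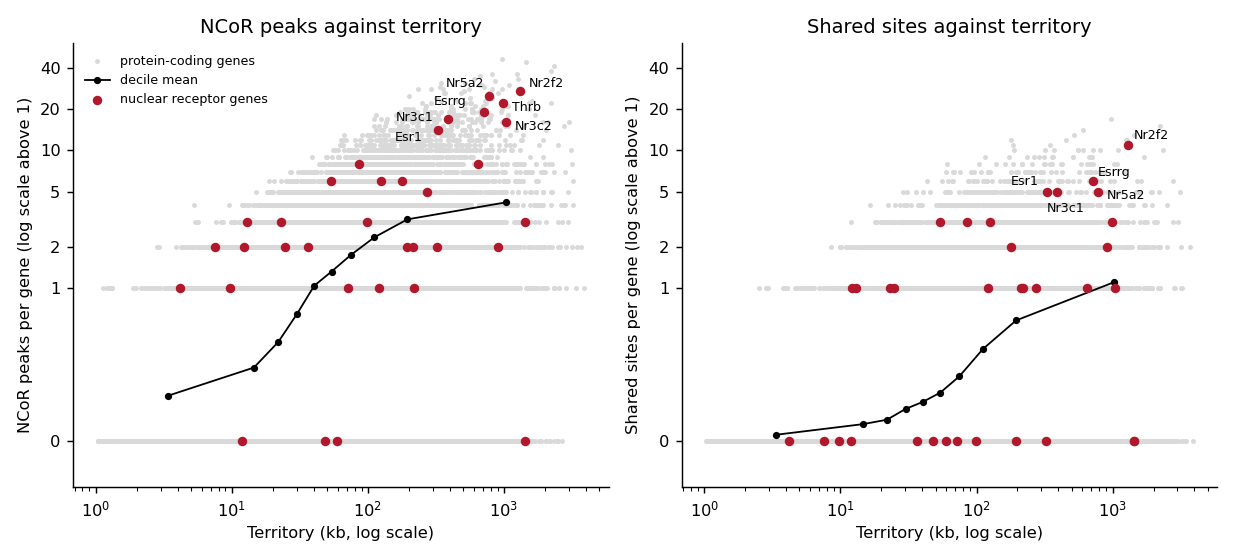
Each point is a gene, with its territory in kb on the horizontal log axis and its NCoR peaks (left) or shared sites (right) on the vertical axis, which is linear from 0 to 1 and logarithmic above. Protein-coding genes with territories of at least 1 kb are grey, the receptor genes red, and the black line joins the 10 decile means. Of the 34 receptor genes, 22 lie above their decile mean on the left and 18 on the right. Hnf4g and Nr2f1, with territories of over 1000 kb, lie below the mean of their decile in both panels.

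The shared sites were unevenly spread. No shared site was found for 13 members, 1 for 10 members, 2 for 2 members, 3 for 4 members and 5 or more for 5 members. Those 5 genes, Nr2f2, Esrrg, Nr5a2, Nr3c1 and Esr1, held 32 of the 58 shared sites and 102 of the 212 NCoR peaks. This order rests on protein-coding start sites: with genes of any biotype competing for a peak, the same 5 genes held 11 of 29 shared sites, with 5 at Esr1, 3 at Nr5a2 and 1 each at Nr2f2, Esrrg and Nr3c1. The first 10 members by shared sites held 46 and 150.

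Sequences of 8 shared sites are shown, chosen by a fixed rule. They are the shared site closest to the TSS at Nr2f2, Esrrg, Nr5a2 and Esr1, and the promoter sites of Nr1i3, Nr4a2, Nr6a1 and Rarg. Promoter sites are thus over-represented: of 58 shared sites, own promoters held 5, own introns 27 and stretches between genes 20. A promoter is taken from 1000 bp upstream to 100 bp downstream of a protein-coding TSS, and the TSS used at Nr6a1 and Rarg lies inside the gene. Each window is the 228 bp NCoR interval on the plus strand of GRCm38 (mm10), at chr7:70361765-70361992 (Nr2f2), chr1:187593478-187593705 (Esrrg), chr1:136926071-136926298 (Nr5a2), chr10:4604921-4605148 (Esr1), chr1:171212932-171213159 (Nr1i3), chr2:57124121-57124348 (Nr4a2), chr2:38784446-38784673 (Nr6a1) and chr15:102247048-102247275 (Rarg). The lists do not say from which base they count, and the bases after each listed start up to its end are shown. Capitals mark matches on either strand to AGGTCA, the half-site of nuclear receptors, or TGTTTAC, a core motif of forkhead (FOX) factors.
Nr2f2: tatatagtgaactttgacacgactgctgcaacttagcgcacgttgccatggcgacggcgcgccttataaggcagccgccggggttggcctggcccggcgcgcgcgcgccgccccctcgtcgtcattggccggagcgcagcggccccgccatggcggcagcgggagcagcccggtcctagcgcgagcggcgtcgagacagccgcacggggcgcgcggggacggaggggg
Esrrg: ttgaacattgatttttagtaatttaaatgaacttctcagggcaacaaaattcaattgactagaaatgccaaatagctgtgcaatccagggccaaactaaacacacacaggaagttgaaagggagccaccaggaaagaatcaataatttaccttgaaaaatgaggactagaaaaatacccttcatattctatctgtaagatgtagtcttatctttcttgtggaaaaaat
Nr5a2: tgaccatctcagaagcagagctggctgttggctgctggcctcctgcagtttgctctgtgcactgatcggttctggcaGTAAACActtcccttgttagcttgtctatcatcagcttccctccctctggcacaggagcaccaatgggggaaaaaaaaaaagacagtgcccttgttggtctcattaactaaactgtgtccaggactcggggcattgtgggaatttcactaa
Esr1: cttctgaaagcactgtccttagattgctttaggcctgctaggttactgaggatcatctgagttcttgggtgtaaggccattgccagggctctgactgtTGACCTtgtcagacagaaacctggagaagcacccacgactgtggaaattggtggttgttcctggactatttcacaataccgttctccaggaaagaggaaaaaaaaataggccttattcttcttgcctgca
Nr1i3: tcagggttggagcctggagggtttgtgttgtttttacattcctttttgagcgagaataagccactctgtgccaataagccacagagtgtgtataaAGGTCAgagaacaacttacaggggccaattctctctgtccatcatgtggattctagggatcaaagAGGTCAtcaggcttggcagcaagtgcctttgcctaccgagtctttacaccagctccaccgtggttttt
Nr4a2: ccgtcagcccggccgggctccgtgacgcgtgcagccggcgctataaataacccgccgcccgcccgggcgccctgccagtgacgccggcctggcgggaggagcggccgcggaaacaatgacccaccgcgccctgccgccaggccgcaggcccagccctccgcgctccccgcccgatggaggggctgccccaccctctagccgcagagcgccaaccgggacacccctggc
Nr6a1: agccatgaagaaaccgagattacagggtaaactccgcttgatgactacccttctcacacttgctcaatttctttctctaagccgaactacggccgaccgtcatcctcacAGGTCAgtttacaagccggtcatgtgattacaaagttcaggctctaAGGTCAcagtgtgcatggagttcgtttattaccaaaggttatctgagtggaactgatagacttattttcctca
Rarg: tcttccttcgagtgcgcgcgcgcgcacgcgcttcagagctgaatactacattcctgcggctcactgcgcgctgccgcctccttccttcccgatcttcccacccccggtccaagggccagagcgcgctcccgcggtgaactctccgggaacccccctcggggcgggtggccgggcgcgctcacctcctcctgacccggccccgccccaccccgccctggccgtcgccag

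The windows differ in make-up. Those of Nr4a2 (77.2% G or C), Nr2f2 (72.8%) and Rarg (72.8%) are rich in G and C and hold no match to any of the motifs searched. The Esrrg window, at 33.8%, is the poorest in G and C and also has no match. The promoter windows of Nr1i3 and Nr6a1 each hold 2 half-sites in the same orientation, the Esr1 window holds 1 on the minus strand, and the Nr5a2 window holds 1 FOX match.

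Nr2f2 encodes COUP-TFII, an orphan receptor known for venous identity and organ development. Its gene (ENSMUSG00000030551.14, chr7:70351944-70366735, minus strand) had 27 NCoR, 13 SMRT and 14 HDAC3 peaks in a territory of 1304 kb. The 27 NCoR peaks comprised 11 shared sites, 3 with HDAC3 alone, 1 with SMRT alone and 12 with neither. Of the 2194 genes in its decile 10 (0.456%, itself included) had at least as many shared sites. 10 of its 11 shared sites lay between genes, and the remaining one was the intronic window printed above, 1.29 kb from the nearest Nr2f2 TSS.

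The upstream side carried the bulk of the Nr2f2 sites. A stretch of 41.8 kb, from 117 to 159 kb upstream of the nearest TSS, held 7 NCoR peaks, 6 of them shared. It was the 50 kb stretch with the most shared sites at any member. The last 3 of the 6 lay 158, 158 and 159 kb upstream, and 2 further shared sites followed at 257 and 433 kb. Downstream shared sites lay at 14.3 and 59.9 kb. The related COUP-TFs differed: Nr2f1 (COUP-TFI, known from the nervous system) had 3 NCoR peaks and no shared site in 1431 kb, and Nr2f6 had 2 NCoR peaks, 1 of them a shared site 1.65 kb upstream, in 12.2 kb.

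**Figure D3:**
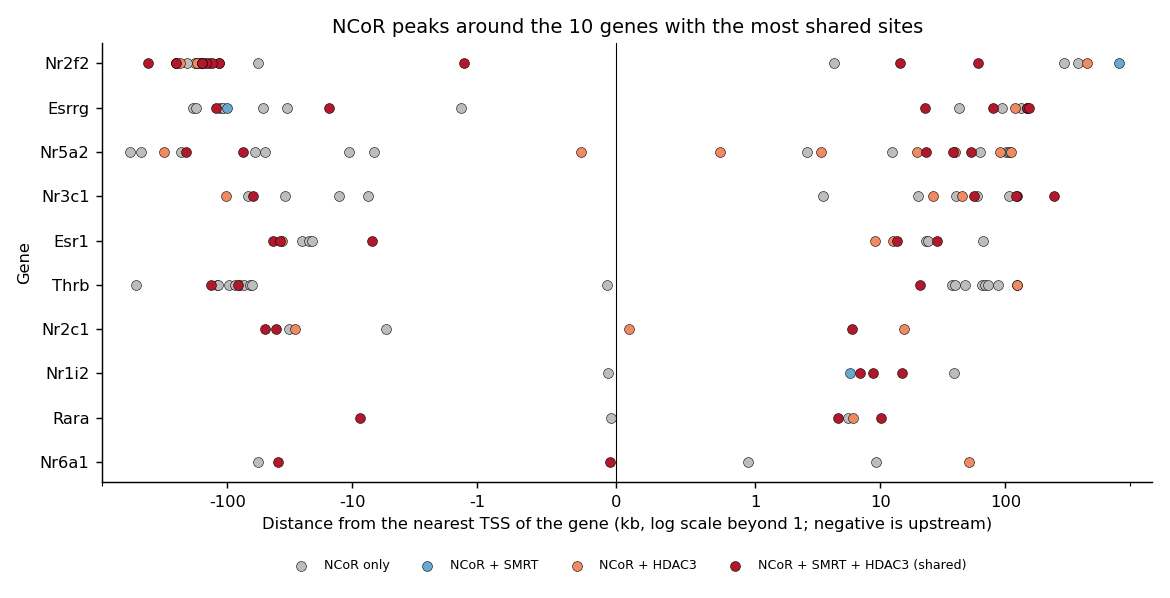
Each point is an NCoR peak at one of the 10 receptor genes with the most shared sites, placed by its distance in kb from the gene's nearest TSS (horizontal axis, linear within 1 kb and logarithmic beyond, negative upstream) and coloured by partner class. The run of shared sites from 117 to 159 kb upstream of Nr2f2 and the 3 shared sites within 15 kb downstream of the Nr1i2 TSS are visible.

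The oestrogen-related receptors are orphan receptors that control mitochondrial and oxidative genes. Esrrg, encoding the gamma form, had 19 NCoR peaks, of which 6 were shared sites, 2 carried HDAC3, 1 carried SMRT and 10 neither. 4 of the shared sites lay in its introns and 2 upstream, at 15.4 and 124 kb. In its decile 3.92% of genes had as many shared sites. Esrra, the alpha form, had 2 NCoR peaks, both without partners and 0.348 and 1.46 kb downstream of a TSS, in a territory of 7.60 kb. Esrrb, known from pluripotent stem cells, had 5 NCoR peaks and 1 shared site in 273 kb. The 3 genes therefore ordered as Esrrg, Esrrb and Esrra by count, but as Esrra (26.3), Esrrg (2.67) and Esrrb (1.83) by NCoR peaks per 100 kb.

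Nr5a2 encodes LRH-1, a receptor that drives bile acid synthesis genes in hepatocytes. Its gene (ENSMUSG00000026398.14, chr1:136842571-136960448, minus strand) had 25 NCoR peaks, the second count among the members, with 13 HDAC3 and 7 SMRT peaks. Of the 25, 5 were shared sites and 8 carried HDAC3 without SMRT, the most of that class at any member. The promoter peak, 0.257 kb upstream, was of this HDAC3 class. The shared sites lay in introns 23.4, 37.9 and 53.5 kb downstream of the TSS and between genes 74.4 and 212 kb upstream. Nr5a1 (SF-1, the factor of adrenal and gonad) had 1 NCoR peak without partners, and its neighbour on the chromosome, Nr6a1 (GCNF, a repressor known from germ cells), had 6 with 2 shared sites.

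The 5 steroid hormone receptor genes among the members each had a shared site, against 20.9% of all genes and 1.98 of the 5 by their territory deciles. They held 13 shared sites and 50 NCoR peaks in all, and their decile means summed to 4.89 and 18.9. Nr3c1, the glucocorticoid receptor, had 17 NCoR peaks and 5 shared sites. Of these, 3 lay in introns of the neighbouring gene Arhgap26, 1 in its own intron and 1 between genes, at 56.5 to 246 kb from the nearest Nr3c1 TSS. Esr1, the alpha oestrogen receptor, had 14 NCoR peaks and 5 shared sites, 4 of them intronic and 1 at 6.96 kb upstream, printed above. Nr3c2, the mineralocorticoid receptor, had about as many NCoR peaks (16) but 1 shared site, and 11 of its peaks had no partner. Pgr (progesterone receptor) had 2 NCoR peaks and Esr2 (beta oestrogen receptor) 1, in an intron of Syne2, and each had 1 shared site.

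The thyroid hormone receptors had the largest share of NCoR peaks without partners among the role groups with over 10 NCoR peaks. Thrb, the main thyroid hormone receptor of liver, had 22 NCoR peaks, of which 17 had neither partner, 2 had HDAC3 and 3 were shared sites, all in its introns. Its promoter peak, 0.069 kb upstream, had no partner. Thra had 3 NCoR peaks, 1 of each class except NCoR with SMRT. For both genes together 18 of 25 NCoR peaks had no partner (72.0%, 50.6 to 87.9), with 56.1% over all NCoR peaks, a value inside that interval.

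Nr1i2 and Nr1i3 encode PXR and CAR, the xenobiotic sensors of hepatocytes. Nr1i2 had 6 NCoR peaks in 126 kb, including 3 shared sites in its introns at 6.84, 8.76 and 14.9 kb downstream of the TSS, a span of 8.03 kb, with a peak of NCoR and SMRT at 5.77 kb. Its promoter peak, 0.058 kb upstream, had no partner. Nr1i3 had 3 NCoR peaks within 1 kb of the TSS in a territory of 13.0 kb. The shared one lay 0.925 kb upstream, and those 0.001 and 0.805 kb downstream had no partner. Vdr, the vitamin D receptor, had no peak of any cofactor in 59.9 kb, whereas 50.5% of genes in its decile had an NCoR peak.

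All 5 retinoid receptor genes had NCoR peaks, against 49.1% of all genes and 2.45 of the 5 by their territory deciles. A shared site was found for 4, against 20.9% of all genes and 1.07 of the 5 by their deciles. They held 18 NCoR peaks in all, and their decile means summed to 8.78. Rara, a receptor for retinoic acid, had 6 NCoR peaks in 53.7 kb, with 3 shared sites in its introns, each with an AGGTCA match. In its decile 2.69% of genes had as many shared sites. Rarb had 8 NCoR peaks with 1 shared site. Rarg had 2, with 1 shared site 0.661 kb upstream of an internal TSS, and Rxrg 1, a shared site 0.105 kb upstream of an internal TSS. Rxrb, partner of many receptors, had 1 NCoR peak without partners, 0.185 kb from its TSS and inside the promoter of Slc39a7.

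The remaining orphan receptors had few sites apart from Nr2c1. Nr2c1 (TR2) had 8 NCoR peaks in 85.6 kb, with 3 shared sites and 3 with HDAC3, and 4.06% of its decile had as many shared sites. 2 of the shared sites lay outside Nr2c1, in introns of Fgd6. Nr2c2 (TR4) had 3 NCoR peaks, none with a partner. Nr2e3, known from photoreceptors, had 2 NCoR peaks, 1 with HDAC3.

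The NR4A receptors are immediate-early genes induced by hormones and stress. Together they held 6 NCoR peaks and 2 shared sites, below the 9.42 and 2.47 to which their decile means summed. Each gene had 2 NCoR peaks, 1 of them in its promoter, and they differed in partners. Both Nr4a2 peaks were shared sites, 0.231 and 3.67 kb upstream. Both Nr4a1 peaks carried HDAC3 and not SMRT, at 0.219 and 7.29 kb upstream. At Nr4a3 the peak 1.74 kb upstream carried SMRT and not HDAC3, and the one 0.449 kb upstream had no partner. With 2 peaks a gene these differences rest on single calls.

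The LXR genes, receptors for sterols, have short territories and held 1 NCoR peak, with decile means that sum to 0.774. Nr1h3, the oxysterol receptor LXR alpha, had 1 NCoR peak, 0.017 kb upstream and without partners, in 9.68 kb, in a decile where 24.3% of genes had one. Nr1h2 (LXR beta) had no peak in 11.9 kb, in a decile where 31.6% of genes had an NCoR peak. Nr2e1, known from neural stem cells, had none in 48.2 kb. Hnf4g, the paralogue of Hnf4a known from the gut, had none in 1426 kb, in a decile where 69.2% of genes had an NCoR peak.

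The mix of partners at the receptor genes did not differ detectably from that of NCoR peaks in general. Shared sites made up 58 of 212 (27.4%, 21.5 to 33.9), against 24.9% over all NCoR peaks. NCoR with HDAC3 alone made up 35 (16.5%, 11.8 to 22.2), against 14.8%. NCoR with SMRT alone made up 7 (3.30%, 1.34 to 6.68), against 4.16%, and NCoR without partners 112 (52.8%, 45.9 to 59.7), against 56.1%. Each share over all peaks lay inside the members' interval, while the number of sites per gene was higher, as given above.

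**Figure D4:**
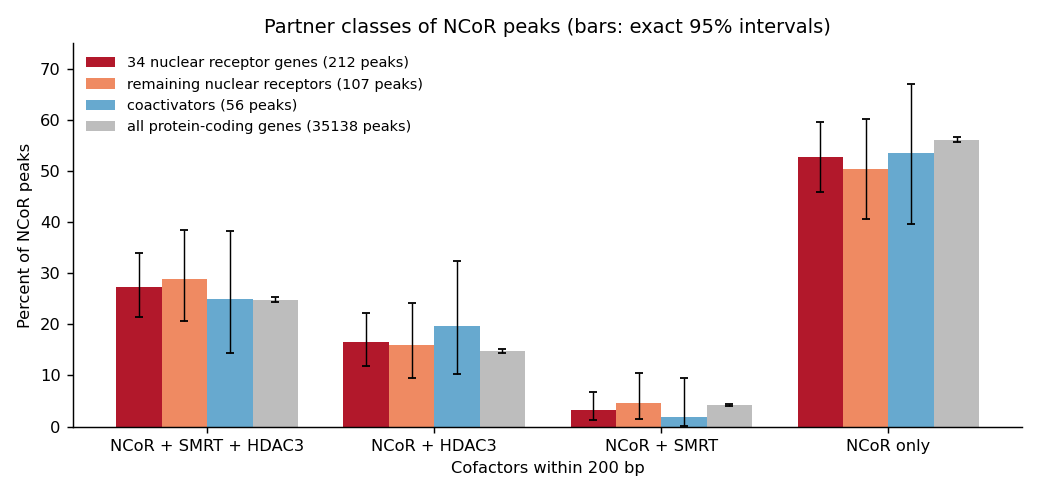
Bars give the percent of NCoR peaks (vertical axis) in each partner class for the 34 receptor genes, the 14 further receptor genes, 8 coactivator genes and all protein-coding genes, with exact 95% intervals for counting error. The red bar for shared sites stands at 27.4% with the grey bar of all peaks, 24.9%, inside its interval.

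At the shared sites the 3 peaks lay close together. The median distance from the NCoR centre was 24 bp to SMRT and 22.5 bp to HDAC3, against 23 and 21 bp over all shared sites. The largest distances were 107 and 84 bp, so no shared site lay near the limit of 200 bp, and a limit of 400 bp added none. Peaks without NCoR were rare at these genes: 5 SMRT and 3 HDAC3 peaks had no NCoR centre within 200 bp. At Nr4a1 a SMRT and an HDAC3 peak coincided 7.76 and 7.81 kb upstream, more than 200 bp from the NCoR peak at 7.29 kb upstream. The others were single peaks at Thrb (3), Nr2f2, Nr3c1 and Nr5a2. An HDAC3 peak of Thrb, 37.2 kb downstream, lay near the NCoR peak at 37.5 kb but beyond the limit.

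Most sites lay far from the nearest TSS. The median distance to the TSS was 42.9 kb, against 18.2 kb over all NCoR peaks, and 149 of 212 (70.3%) lay within 100 kb, against 85.9%. These distances were not matched for territory, and 160 of the 212 peaks lay at the 13 members of the longest decile. The median was 5.77 kb for the PXR, CAR and vitamin D receptor genes and 5.93 kb for the retinoid receptor genes, whose territories are shorter. Own introns held 109 peaks (51.4%), stretches between genes 68 (32.1%), own promoters 19, other genes 11 and own exons 4, and the last was the Rxrb peak in the promoter of its neighbour. Promoters held 20 of 212 (9.43%, 5.86 to 14.2), against 10.4% of all NCoR peaks, so the promoter share was not detectably different. Of the 19 own-promoter peaks 11 had no partner, 3 had HDAC3 and 5 were shared sites, those of Nr1i3, Nr4a2, Nr6a1, Rarg and Rxrg. Own promoters include those of TSSs inside the gene, and the shared sites of Nr6a1, Rarg and Rxrg lay at such internal TSSs. The side downstream of the nearest TSS held 103 peaks (48.6%, 41.7 to 55.5) and the upstream side 109. Of all NCoR peaks 56.8% lay downstream, a share above the members' interval. The 3 COUP-TF genes held 24 of the upstream and 8 of the downstream peaks, and 27 of their 32 peaks were those of Nr2f2. The downstream share without Nr2f2 was not computed, so whether the other members differ from all NCoR peaks in this share was not tested. A TSS can lie inside a gene, so upstream peaks include intronic ones, such as the Esrrg peak at 188 kb. Another NCoR peak lay within 10 kb for 139 of 212 (65.6%, 58.8 to 71.9), against 62.1% of all.

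The share of peaks with a motif match, read in the central 200 bp on both strands, did not differ detectably between the receptor genes and all NCoR peaks. AGGTCA was present in 82 of 212 windows (38.7%, 32.1 to 45.6), against 36.2% of all NCoR windows. TGTTTAC was present in 17 (8.02%, 4.74 to 12.5), against 7.74%, and TTCCNNGAA, a form bound by BCL6 and STAT factors, in 7 (3.30%, 1.34 to 6.68), against 4.15%. TCAAGGTCA, the extended half-site of the ERR and NR5A receptors, which contains AGGTCA, was present in 4 (1.89%, 0.516 to 4.76), against 1.35%. CAAAGTCCA, an HNF4 half-site, was also present in 4, against 2.10%. Direct repeats of 2 half-sites with at most 1 mismatch in each, which can overlap the single half-site, were present in 19 windows at a spacing of 1 bp (DR1, 8.96%, 5.48 to 13.6), against 8.06%, and in 4 at a spacing of 4 bp (DR4, 1.89%, 0.516 to 4.76), against 3.86%. Every share over all NCoR peaks lay inside the members' interval, and among the 58 shared sites AGGTCA was present in 22 (37.9%, 25.5 to 51.6), against 39.6% of all shared sites.

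**Figure D5:**
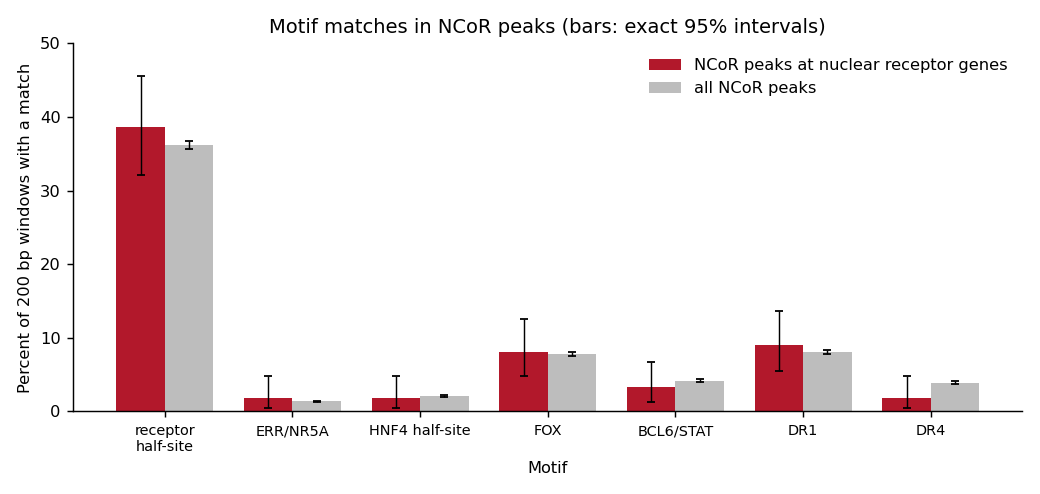
Bars give the percent of 200 bp windows (vertical axis) with at least 1 match to each motif, for the 212 NCoR peaks at the receptor genes and for all 35138 NCoR peaks, with exact 95% intervals for counting error. The half-site stands at 38.7% and 36.2%, and for each of the 7 motifs the grey bar lies within the red interval.

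The 14 further receptor genes had higher ratios than the 34. They held 107 NCoR peaks and 31 shared sites, 3.54 and 4.04 times the sums of their decile means. A shared site was found for 9 of the 14, against 3.75 by their territory deciles and 20.9% of all genes. Rora with 10 and Ppara with 9 shared sites led them, and Nr2f2, with 11, was the one gene of the 34 above 6. The 8 coactivator genes held 56 NCoR peaks and 14 shared sites, 2.51 and 2.47 times their decile means, which is near the 2.46 and 2.63 of the 34 genes. Shared sites made up 29.0% (20.6 to 38.5) of the NCoR peaks at the 14 further receptor genes and 25.0% (14.4 to 38.4) at the coactivator genes, and both shares lay inside the interval of the 34 members.

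These counts depend on giving a peak to the nearest protein-coding TSS. When genes of any biotype could take a peak, the members kept 107 NCoR peaks and 29 shared sites, with Nr2f2 going from 27 to 2 NCoR peaks, Thrb from 22 to 4, Esrrg from 19 to 7 and Nr3c1 from 17 to 10, while 19 members still had a shared site and 27.1% of the NCoR peaks were shared. Under that rule the ratios to the decile means were 2.41 for NCoR peaks and 2.77 for shared sites, with 2.46 and 2.63 in the main count. These ratios were added after seeing the data. The files hold nothing that ties a site to the gene it acts on.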

How the data were processed

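Per the labels and the study's methods, the authors aligned reads to mm10 with Bowtie, kept uniquely mapped reads, called peaks with HOMER on pooled replicates against input, and kept those passing DESeq2 on the individual libraries. The deposited lists give chromosome, start and end only, with no score, count or value per replicate, at a fixed width of 228 bp (NCoR) or 212 bp (SMRT, HDAC3). All 60254 peaks lay inside the GRCm38 chromosomes.

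Each peak centre was given to the gene whose protein-coding TSS lay closest (GENCODE vM21 basic, all transcripts), and overlaps were taken at 200 bp between centres. Territory left out unknown bases. Promoters used protein-coding TSSs only. Scripts ran in Python 3.11.15 with pandas 2.3.3, scipy 1.17.1 and pysam 0.24.0, and were checked on simulated peaks.

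The 34 members and all lists were chosen with earlier results of these data known, and 1 gene of the comparison list is not reported here. Every member was counted; the 10 with the most shared sites (ties by NCoR peaks), those with a shared promoter site and those with no peak were described in detail. Sequences, at most 8, were the closest shared site of the first 4 of these members, leaving out 1 on a chromosome not printed, then promoter shared sites by symbol. No test was run, since each group is 1 list without replicate values. Alternatives tried were overlap limits of 100 and 400 bp, 1 TSS per gene, a 100 kb limit, no rival TSS within 2 times the distance, all biotypes, other promoter windows, 100 territory bins, genes with an NCoR peak, and leaving out Nr2f2.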

Additional observations from a re-analysis of the deposited data

How the results depend on the processing

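Of 49 recomputed values 45 stayed within 1.5 times the reported count or ratio, or within the reported interval of a share, and 4 moved. With genes of any biotype competing, the members had 107 NCoR peaks in place of 212, 29 shared sites in place of 58, and 18.7% of NCoR peaks in promoters in place of 9.43%. A promoter of 5000 bp on either side raised the promoter share to 19.3%. The ratio of shared sites to the decile means ran from 1.85 (genes with an NCoR peak only) to 3.68 (no rival TSS within 2 times the distance), and that of NCoR peaks from 1.72 to 3.35 under the same alternatives. Leaving out Nr2f2, an alternative chosen after seeing the data like all those on the ratios, gave 47 shared sites, 25.4% of NCoR peaks. No paired analysis was possible because the replicates were merged into 1 list per cofactor before deposit. For the same reason leaving out a replicate, or a stricter peak threshold, was not run.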
